A study of Mus musculus with 6 samples.

Results

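The lysosome is the acidic compartment in which cells break down glycans, lipids and proteins. Here 44 genes of lysosomal enzymes and membrane proteins were followed in mouse embryonic fibroblasts (MEFs) that had received an adenovirus carrying ORAI2, a pore subunit of the store-operated calcium channels of the plasma membrane. The genes were given as a list of names and were found through their Entrez gene identifiers, 44 of 44, in a table of 26532 genes. The list was drawn up with earlier results of these data known. Hgsnat was singled out within it for comparison with the other heparan sulfate enzymes and with the cathepsins.

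The study asked what ORAI2 does to osteogenic differentiation. It comprised 6 RNA-seq libraries of poly(A)-selected RNA. There were 3 libraries from MEFs given the ORAI2 adenovirus, with a genotype label of ORAI2 overexpression, and 3 from MEFs given a GFP adenovirus, with a genotype label of wild type. All 6 libraries carried a treatment label of osteogenic differentiation and a cell type label of mesenchymal stem cells, and no time point, dose of virus or strain was given in the labels used here. The labels do not state whether replicates are separate cultures. Each p-value therefore reflects the variation among these 6 libraries alone, which may be technical. The forced gene came from a virus and not from the cells' own locus, and no uninfected MEFs were included among these libraries.

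Total counts were 18526884 to 18700962 per ORAI2 library and 18582854 to 18844436 per GFP library. Orai2 itself reached 2976 ± 620 CPM (counts scaled to a common library size) in ORAI2 libraries against 50.3 ± 2.64 CPM in GFP libraries (SD, n = 3 each). Fibroblast and mesenchymal marker genes (13 found) summed to 6800 to 7326 CPM in ORAI2 libraries and 8775 to 9280 CPM in GFP libraries, and of the 12 tested 1 was called higher and 11 lower. Thy1, another defining fibroblast marker, was at most 0.161 CPM in any library. Macrophage markers (12 found), a check because macrophages are rich in lysosomes, summed to 27.1 to 36.3 CPM in ORAI2 libraries and 52.1 to 55.8 CPM in GFP libraries. Most of that sum came from Cd14 and Mpeg1, while the defining markers Ptprc, Csf1r and Itgam were at most 0.214 CPM in any library. Osteoclast markers (6 found) summed to 1.98 to 2.48 CPM in ORAI2 libraries and 1.83 to 2.55 CPM in GFP libraries, with Acp5 and Ocstamp at or near 0. Osteoblast markers (6 found) summed to 553 to 672 CPM in ORAI2 libraries and 641 to 762 CPM in GFP libraries, with Bglap and Sp7 too low to test. Nearly all of it came from Spp1, at a mean of 545 CPM in ORAI2 and 612 CPM in GFP libraries, and Runx2. Alpl averaged 0.718 CPM in ORAI2 and 0.50 CPM in GFP libraries, and none of the 3 tested was called. Endothelial markers (6 found, Emcn at 0) summed to 16.3 to 17.5 CPM in ORAI2 libraries and 6.42 to 8.88 CPM in GFP libraries. Vwf and Kdr made up nearly all of this, while Pecam1, Cdh5 and Tek were at most 0.375 CPM in any library. Epithelial markers (5 found, Epcam at 0) summed to 4.21 to 5.12 CPM in ORAI2 libraries and 2.74 to 3.74 CPM in GFP libraries. Krt18 and Grhl2 made up most of this, while Cdh1 and Krt8 were at most 0.268 CPM in any library. In bulk RNA a lower level from fewer cells of a type and a lower level per cell cannot be told apart.

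Heparan sulfate is a sulfated sugar chain carried by cell surface and matrix proteoglycans. In the lysosome it is taken apart from its end by a fixed succession of enzymes, each of which exposes the substrate of the next, and the loss of any of them causes a storage disease in humans. Ids and Sgsh remove sulfate groups, Idua, Gusb and Naglu cleave sugars, and Hgsnat, a membrane protein, moves an acetyl group across the lysosomal membrane onto the glucosamine that Sgsh has uncovered, so that Naglu can cleave it. Cathepsins are the proteases of the same compartment, the v-ATPase is the proton pump that acidifies it, and TFEB is a transcription factor that binds an E-box element (the CLEAR element) in the promoters of many lysosomal genes.

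As the TFEB element occurs in the promoters of many lysosomal genes, those of the list were searched for it on both strands. The search used the RefSeq windows of 300 bases (250 before to 50 after the transcription start, build GRCm38.p6). Windows were found for 37 of the 44 genes and not for Hgsnat. The core CACGTG stood in the windows of 13 of the 37 genes (35.1%), against 11.7% of the 10709 tested genes with a window. The longer GTCACGTG, which contains that core, stood in 11 of 37 (29.7%) against 4.73%. By windows of all genes in the RefSeq table, in place of genes, CACGTG was found in 31% of the 42 windows of the lysosomal genes and in 7.15% of 32851 windows in all. Shown here, 5′ to 3′ along the gene's own strand and one per gene, are the stretches of 9 promoters with the motif in capitals, read as GTCACGTG or as its complement CACGTGAC. They are of genes that rose (Lamp1, Mcoln1, Atp6v0d1, Gla, Ctsa), genes that fell (Naglu, Glb1, Arsa) and 1 gene that did not pass the test (Sgsh).
Lamp1, chr8:13159115-13159158, plus strand: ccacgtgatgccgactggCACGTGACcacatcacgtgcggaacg
Mcoln1, chr8:3500428-3500471, plus strand: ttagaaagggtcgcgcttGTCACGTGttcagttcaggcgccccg
Atp6v0d1, chr8:105566044-105566087, minus strand: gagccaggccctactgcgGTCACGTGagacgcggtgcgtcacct
Gla, chrX:134601176-134601219, minus strand: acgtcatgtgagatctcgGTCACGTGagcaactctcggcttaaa
Ctsa, chr2:164833741-164833784, plus strand: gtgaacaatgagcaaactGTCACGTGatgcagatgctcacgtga
Naglu, chr11:101070001-101070044, plus strand: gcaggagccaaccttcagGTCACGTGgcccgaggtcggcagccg
Glb1, chr9:114401010-114401053, plus strand: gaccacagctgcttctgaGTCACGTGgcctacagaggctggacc
Arsa, chr15:89477417-89477460, minus strand: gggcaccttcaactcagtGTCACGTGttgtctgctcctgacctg
Sgsh, chr11:119355514-119355557, minus strand: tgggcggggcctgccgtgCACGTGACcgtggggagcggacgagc

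The first base of the motif lay 28 bases before the start in Lamp1, 73 before it in Mcoln1, 75 before it in Naglu and 196 before it in Gla. Among the genes with a window, GTCACGTG was present in 6 of 15 that rose, in 3 of 9 that fell and in 2 of 13 that did not pass the test. The match is a description of these letters only, and no test was run on it.

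Of the 44 genes, all of which had enough counts to be tested, 19 were higher and 9 were lower in ORAI2 than in GFP libraries at an adjusted p under 0.05 (edgeR's quasi-likelihood test, Benjamini-Hochberg adjustment over 13764 genes), and 16 did not pass. Over all tested genes, 20.8% were called higher and 22.1% lower, 42.9% in all, against 43.2% and 20.5%, 63.6% in all, of the lysosomal genes. These genes are expressed well above the average, with a median mean level of 114 CPM against 28.2 CPM for all tested genes, and calls are more frequent at such levels. Among the 7850 genes that averaged 20 CPM or more, 29.8% were called higher, 23.9% lower and 53.8% either way, and 39 of the lysosomal genes, with all 19 and all 9 of the calls, lay in that range. The median log2 fold change of the 44 genes was 0.05, against 0.00 for all tested genes, and the median absolute log2 fold change was 0.21 against 0.18.

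The called changes were mostly small. The median change was 1.19-fold among the 19 that rose and 1.26-fold among the 9 that fell. Of the 44 genes, 4 were called higher with an absolute log2 fold change of at least 0.5 (Hgsnat, Atp6v1h, Gla and Atp6v0d1). Over all tested genes, 3.25% were called higher by as much. Another 3 of the 44 were called lower by at least 0.5 (Lipa, Gm2a and Ids), where 8.06% of all tested genes were. Hgsnat was the 1 gene of the list to pass 1. The lysosomal genes together took 1.30 to 1.32% of the counts in ORAI2 libraries and 1.16 to 1.20% in GFP libraries. Lamp1 and Ctsb carried much of that gap: the sum over all 44 genes was 13132 ± 89.2 CPM against 11728 ± 211 CPM in GFP libraries, and 9670.0 ± 58.2 against 9014 ± 129 CPM without these genes (SD, n = 3 each). The 3 ORAI2 libraries lay above the 3 GFP libraries without overlap for 21 of the 44 genes, where 26.2% of all tested genes did so, and below them for 13, where 26.6% did. In all, 34 of the 44 did not overlap, against 52.8% of all tested genes. In the GENCODE M21 annotation, exons of 11 of the 44 genes (Arsa, Arsb, Cln3, Ctsa, Ctsb, Ctsd, Ctsl, Hexa, Lamp1, Npc1 and Sgsh) overlap those of other genes over at least 200 bases. For Ctsd and Ctsl an overlap lies on the same strand, over 808 bases with Gm49369 and 395 bases with Gm49230. Counting by strand would not separate these. For the overlaps on opposite strands, the sources used here do not say whether counting used strand. Reads of the 11 genes and their neighbours may therefore not be separated, and their values are uncertain to that extent. Hgsnat has no such overlap.

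**Figure D1:**
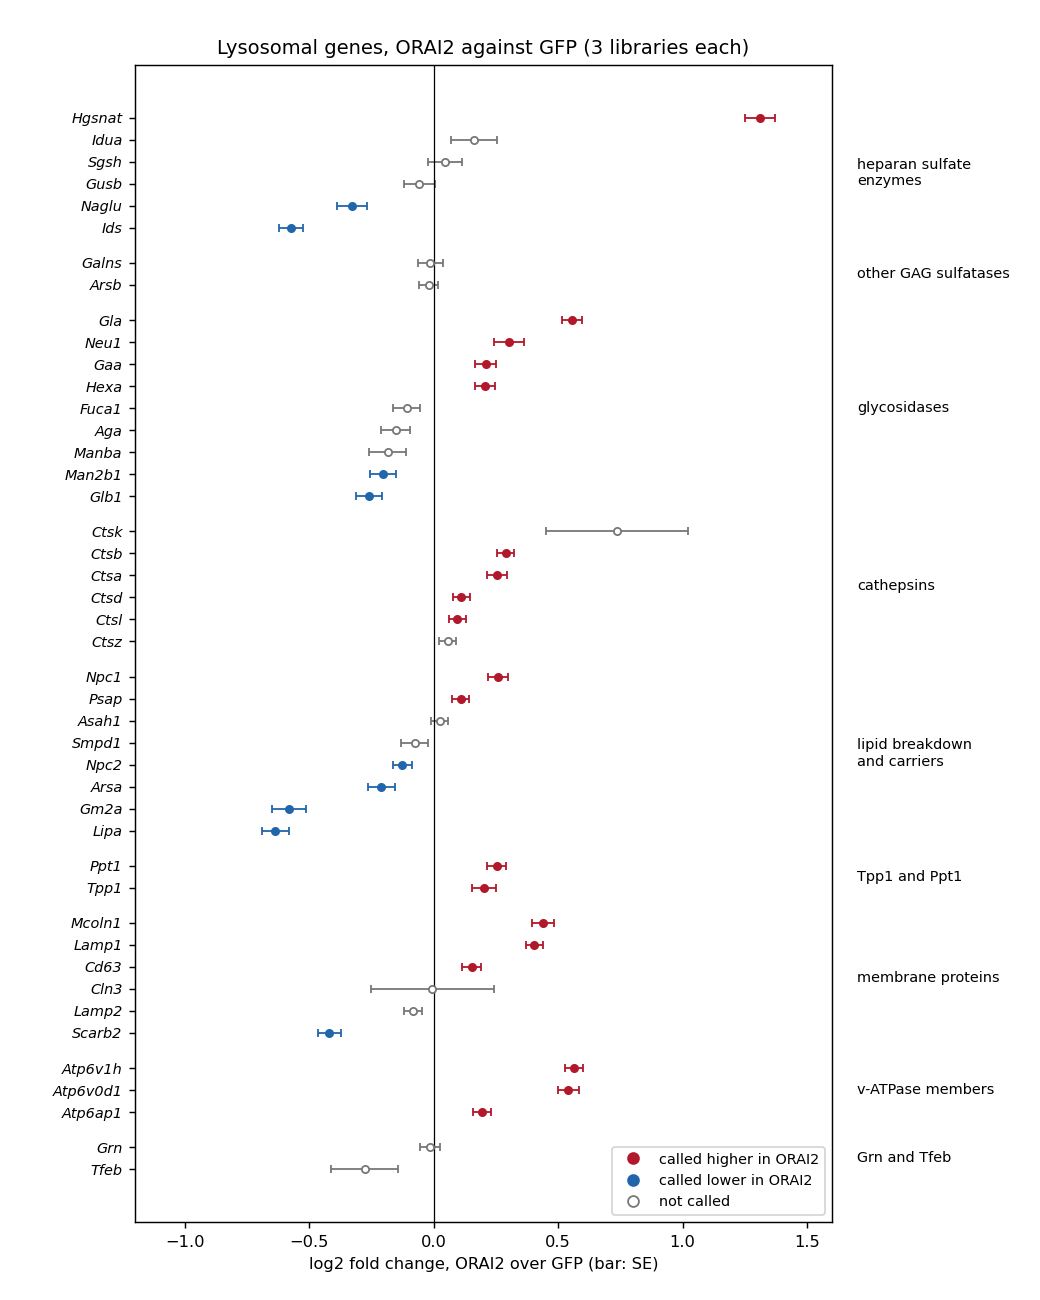
Log2 fold change of each of the 44 lysosomal genes, ORAI2 over GFP, with its standard error as a bar, grouped by role. Filled red points were called higher, filled blue points lower, and open points did not pass the test. Hgsnat stands alone at 1.31, the v-ATPase genes and all 6 cathepsins of the list lie right of 0, and Lipa, Gm2a and Ids lie furthest left.

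Within the heparan sulfate enzymes, Hgsnat rose while Ids and Naglu fell and the other 3 did not pass the test. Hgsnat had 218, 205 and 186 CPM in the ORAI2 libraries, against 83.6, 86.0 and 75.7 CPM in the GFP libraries. The lowest ORAI2 library was thus more than 2 times the highest GFP library. The mean was 203 ± 16.2 CPM in ORAI2 and 81.8 ± 5.37 CPM in GFP libraries (SD, n = 3 each), a log2 fold change of 1.31 ± 0.06 (SE) or 2.48-fold, with an edgeR adjusted p of 1.31e-08. In order of log2 fold change from the highest rise, it ranked 13 among the 10526 genes that averaged 5 CPM or more and 56 among all 13764 tested genes. This rise was known when Hgsnat was chosen, and it stands here as a description.

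Ids, the sulfatase that acts on iduronic acid, had 60.2, 57.3 and 62.9 CPM in the ORAI2 libraries, against 87.3, 86.8 and 94.3 CPM in the GFP libraries. All ORAI2 libraries were lower than all GFP libraries. Its log2 fold change was -0.57 ± 0.05 (SE), 1.49-fold lower, with an edgeR adjusted p of 1.53e-06. Naglu, the glucosaminidase that acts directly after Hgsnat, had 24.5, 23.7 and 22.2 CPM in the ORAI2 libraries, against 30.4, 29.5 and 28.5 CPM in the GFP libraries. These groups again did not overlap, and Naglu was 1.26-fold lower (log2 fold change -0.33 ± 0.06, edgeR adjusted p = 0.000936).

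Sgsh, the sulfamidase that acts directly before Hgsnat, averaged 19.1 ± 0.53 CPM in ORAI2 and 18.52 ± 0.57 CPM in GFP libraries, with overlapping groups and an edgeR adjusted p of 0.627. Gusb, the glucuronidase, averaged 73.8 ± 4.50 CPM in ORAI2 and 76.8 ± 6.72 CPM in GFP libraries (edgeR adjusted p = 0.488). Idua, the iduronidase, averaged 14.2 ± 0.42 CPM in ORAI2 and 12.7 ± 1.45 CPM in GFP libraries (edgeR adjusted p = 0.177). Without GFP library 3, which was the highest of its group at 14.3 CPM, Idua was called higher (edgeR adjusted p = 0.0309). Galns and Arsb, sulfatases of other glycosaminoglycans, had log2 fold changes of -0.01 and -0.02 and did not pass.

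**Figure D2:**
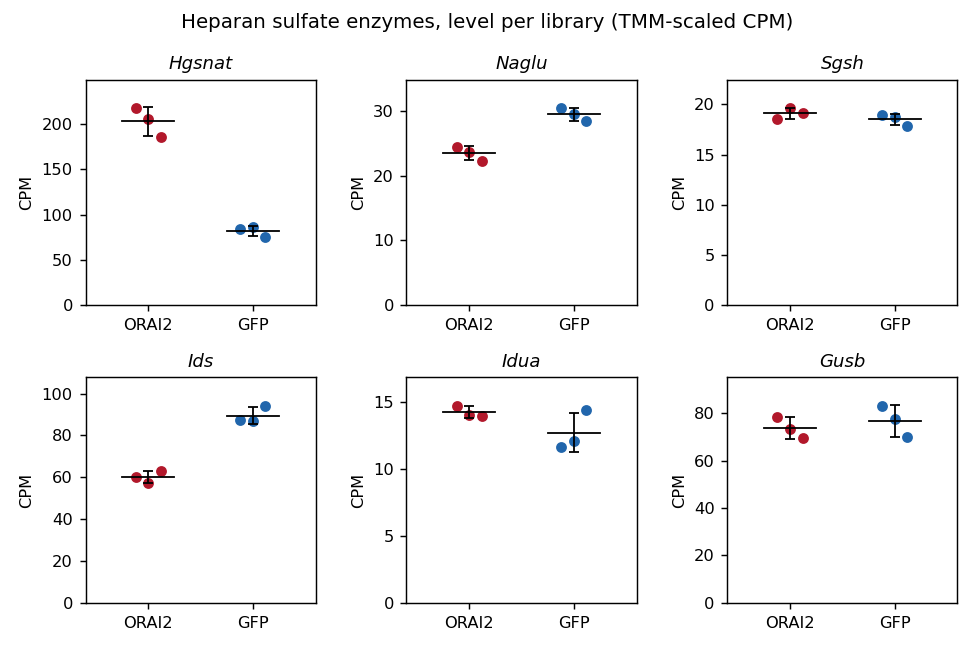
Level of each heparan sulfate enzyme in CPM after TMM scaling, 1 point per library, ORAI2 in red and GFP in blue, with the mean and SD of 3 libraries as lines. Each panel starts at 0 and has its own scale. Hgsnat is higher in all ORAI2 libraries, Naglu and Ids are lower in all of them, and the groups overlap for Sgsh, Idua and Gusb.

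The position of Hgsnat within its pathway was measured as a ratio inside each library, which does not depend on scaling. For every 100 counts of the other 5 heparan sulfate enzymes together there were 110.8, 109.3 and 98.9 counts of Hgsnat in the ORAI2 libraries, against 36.1, 38.3 and 33.7 in the GFP libraries. The ratio was 2.95-fold higher with ORAI2 (log2 difference 1.56), with no overlap between groups. Its exact two-sided permutation p was 0.1, the smallest that 3 against 3 libraries allow. As Hgsnat was chosen with its rise known, this ratio is a description. The sum of those 5 enzymes was itself lower, at 191 ± 5.06 CPM in ORAI2 and 226 ± 2.28 CPM in GFP libraries (SD, n = 3 each, before TMM scaling). Against single enzymes, the ratio of Hgsnat was 3.69-fold higher for Ids, 3.12-fold for Naglu, 2.58-fold for Gusb, 2.40-fold for Sgsh (whose exons overlap those of Card14) and 2.21-fold for Idua.

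Relative to the cathepsins, Hgsnat was also higher. There were 6.37, 5.94 and 5.32 counts of Hgsnat per 100 counts of the 6 cathepsins in the ORAI2 libraries, against 2.79, 2.93 and 2.47 in the GFP libraries. This ratio was 2.15-fold higher (log2 difference 1.10) and had the same exact permutation p of 0.1. The ratio to single cathepsins ran from 1.46-fold higher for Ctsk to 2.39-fold for Ctsz. All 13 ratios share Hgsnat, which was chosen with its rise known, so they are not separate results. The groups did not overlap in any of them. The exact permutation p of each stayed at 0.1 after Benjamini-Hochberg adjustment over the 13, and adds no support to the rise.

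**Figure D3:**
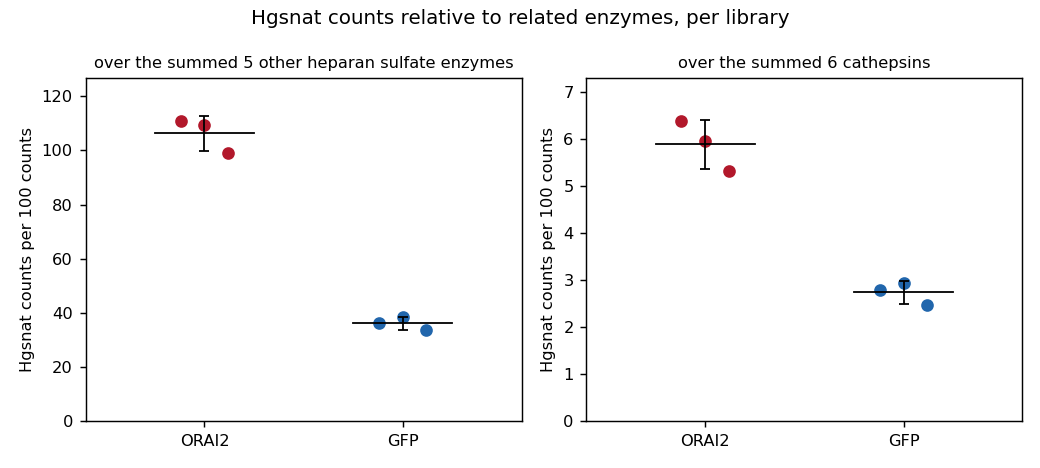
Hgsnat counts per 100 summed counts of the other 5 heparan sulfate enzymes (left) and of the 6 cathepsins (right), 1 point per library, with mean and SD of 3 libraries. ORAI2 libraries lie between 98.9 and 110.8 on the left, where GFP libraries lie between 33.7 and 38.3, and the groups are also apart on the right.

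In order of level per transcript length, Hgsnat stood in the middle of the lysosomal genes. The numbers of the deposited TPM columns did not follow those of the counts, so the columns numbered 1 and 2 were used by group only. They placed it at 154 and 140 TPM in ORAI2 and at 65.6 and 58.4 TPM in GFP columns, rank 20 and rank 23 of 44 by the 2-column mean. The most abundant gene per length was Cd63, a tetraspanin of late endosomes, at a mean of 2906 TPM in ORAI2 and 2634 TPM in GFP columns, followed by Lamp1 and Ctsb. The least abundant was Ctsk, at 1.545 TPM in ORAI2 and 0.935 TPM in GFP columns. Ids had a mean of 23.7 TPM in ORAI2 and 36.3 TPM in GFP columns and ranked 36 and 30.

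Among the heparan sulfate genes outside the list, Hpse, the endoglycosidase heparanase, and Arsg, another sulfatase of the chain, were chosen after their values were seen and were lower with ORAI2, with log2 fold changes of -0.48 and -0.62. Of the 19 tested genes of heparan sulfate synthesis, 5 were called higher (26.3%) and 4 lower (21.1%), near the 20.8% and 22.1% of all tested genes, with a median log2 fold change of -0.01. Shares this near to the background are no result about the list, and the single genes are given as values. Sulf1, an extracellular sulfatase that trims the chain, fell to 27.1 ± 3.20 CPM in ORAI2 libraries against 42.8 ± 1.13 CPM in GFP libraries. Ndst3, an N-deacetylase and N-sulfotransferase, was higher at 3.66 ± 0.21 CPM in ORAI2 and 1.5 ± 0.24 CPM in GFP libraries. Ext1 and Extl2, glycosyltransferases of the chain, were higher by 0.26 and 0.30 on the log2 scale.

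Of the 9 tested genes of the proteoglycan core proteins that carry the chain, 6 fell, where 22.1% of all tested genes did, and none was called higher. Sdc3, Gpc2 and Col18a1 did not pass, and the median log2 fold change was -0.39. Sdc2, a cell surface syndecan, averaged 152 ± 4.60 CPM in ORAI2 and 230.0 ± 12.6 CPM in GFP libraries (log2 fold change -0.60, edgeR adjusted p = 4.31e-07). Hspg2, which encodes the basement membrane protein perlecan, averaged 708 ± 32.1 CPM in ORAI2 and 957 ± 25.7 CPM in GFP libraries. Gpc1, a glypican, was 1.44-fold lower and Agrn, which encodes agrin, was 1.38-fold lower. The fibroblast markers given above were lower in the same libraries, and their part in this result was not tested.

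Of the 6 cathepsins of the list, 4 were called higher (66.7%) and none lower, while Ctsz and Ctsk did not pass. Over all tested genes 20.8% were called higher, and 29.8% of those that averaged 20 CPM or more. In all 6 the ORAI2 libraries lay above the GFP libraries without overlap, where 26.2% of all tested genes did so. Cathepsins outside the list did not share this direction. Ctsc, Ctsh and Ctso, chosen after their values were seen, were lower with ORAI2, with log2 fold changes of -0.50, -0.63 and -0.69 (edgeR adjusted p = 0.000442, 0.000122 and 0.00432), and Ctsf and Ctsw did not pass. Ctsb, a cysteine protease and the most abundant cathepsin here, had 1615, 1668 and 1670.1 CPM in the ORAI2 libraries, against 1329, 1339 and 1388 CPM in the GFP libraries. It was 1.22-fold higher (log2 fold change 0.29 ± 0.04, edgeR adjusted p = 3.47e-05). Ctsa, the serine carboxypeptidase that protects beta-galactosidase and neuraminidase, averaged 432 ± 14.2 CPM in ORAI2 and 362 ± 14.7 CPM in GFP libraries, 1.19-fold higher (edgeR adjusted p = 0.000278).

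Ctsd, an aspartic protease, and Ctsl, a cysteine protease, rose by 1.08-fold and 1.07-fold with edgeR adjusted p of 0.0227 and 0.0437. Both small calls were lost when single libraries were left out. Ctsd did not pass without GFP library 2 (edgeR adjusted p = 0.13) or without ORAI2 library 3 (0.0645). Ctsl did not pass without ORAI2 library 2 (0.0835) or 3 (0.0589), or without GFP library 1 (0.0628) or 2 (0.21). Ctsz, a carboxypeptidase, averaged 133 ± 1.48 CPM in ORAI2 and 128 ± 1.64 CPM in GFP libraries (edgeR adjusted p = 0.207). Ctsk, the collagen-degrading protease of osteoclasts, had only 18, 21 and 21 counts in the ORAI2 libraries, against 11, 10 and 15 counts in the GFP libraries, with an edgeR adjusted p of 0.0538, and was called higher without GFP library 3 (0.0437) and by limma-voom (0.0491).

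Of the 9 genes grouped as glycosidases, 4 rose (44.4%, against 20.8% of all tested genes) and 2 fell (22.2%, against 22.1%). The group holds Aga, which is an amidase and not a strict glycosidase. Among all tested genes that averaged 20 CPM or more, 29.8% were called higher and 23.9% lower. Gla, the alpha-galactosidase that degrades globotriaosylceramide, had 194, 205 and 187 CPM in the ORAI2 libraries, against 134, 132 and 133 CPM in the GFP libraries. The groups were far apart, at 1.47-fold (log2 fold change 0.56 ± 0.04, edgeR adjusted p = 3.27e-07). Neu1, the sialidase, was 1.23-fold higher, and Gaa, the glycogen-degrading alpha-glucosidase, and Hexa, the alpha subunit of beta-hexosaminidase, were 1.16-fold and 1.15-fold higher. Glb1, the beta-galactosidase, and Man2b1, an alpha-mannosidase, fell by 1.20-fold and 1.15-fold.

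The other 3 genes of the glycosidase group sat near the threshold or short of it. Manba, a beta-mannosidase, had a log2 fold change of -0.19 and an edgeR adjusted p of 0.0638, and Aga, which frees glycans from asparagine, had -0.15 and 0.0505. Both were called lower when the replicate number was used as a block (edgeR adjusted p = 0.0402 for Manba and 0.0482 for Aga), where 45.4% of all tested genes were called. Manba was also called without ORAI2 library 1 or GFP library 3, and Aga without ORAI2 library 2. Fuca1, the fucosidase, had a log2 fold change of -0.11 and an edgeR adjusted p of 0.124.

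Genes of lipid breakdown went both ways. Of 8, 2 were called higher (25%, against 20.8% of all tested genes) and 4 lower (50%, against 22.1%). Lipa, the acid lipase that hydrolyses cholesteryl esters, had 37.9, 36.8 and 40.7 CPM in the ORAI2 libraries, against 62.2, 59.8 and 57.5 CPM in the GFP libraries. Every ORAI2 library was lower, with a log2 fold change of -0.64 ± 0.05 (SE, edgeR adjusted p = 1.27e-06), the furthest fall of the 44 genes. Gm2a, the activator protein that presents GM2 ganglioside to beta-hexosaminidase, had 23.4, 19.9 and 20.9 CPM in the ORAI2 libraries, against 32.1, 32.6 and 31.4 CPM in the GFP libraries. Its log2 fold change was -0.58 ± 0.07 (edgeR adjusted p = 2.04e-05), while Hexa, the enzyme subunit it serves, was higher.

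Npc1 and Npc2 hand cholesterol out of the lysosome, Npc2 inside it and Npc1 in its membrane. Npc1 rose to 112 ± 2.96 CPM in ORAI2 libraries, against 94.2 ± 3.33 CPM in GFP libraries (1.19-fold, edgeR adjusted p = 0.00024). Npc2 fell to 715 ± 26.6 CPM in ORAI2 libraries, against 780 ± 7.5 CPM in GFP libraries (1.09-fold lower, edgeR adjusted p = 0.0153), a call lost without ORAI2 library 1 (0.0648) or GFP library 2 (0.0596). Psap, the precursor of the saposins that help sphingolipid enzymes, was 1.08-fold higher, lost without GFP library 2 (0.0916). Arsa, the sulfatide sulfatase, was 1.16-fold lower. Asah1, the acid ceramidase, and Smpd1, the acid sphingomyelinase, had log2 fold changes of 0.02 and -0.08 and did not pass. Tpp1, a tripeptidyl peptidase, and Ppt1, a palmitoyl thioesterase, both linked to neuronal ceroid lipofuscinosis in humans, were 1.15-fold and 1.19-fold higher.

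Of 6 membrane proteins, 3 rose (50%, against 20.8% of all tested genes) and 1 fell (16.7%, against 22.1%). Lamp1, the major glycoprotein of the lysosomal membrane, had 1809.9, 1791 and 1829 CPM in the ORAI2 libraries, against 1349, 1347 and 1407 CPM in the GFP libraries. All ORAI2 libraries were above all GFP libraries, at 1.32-fold (log2 fold change 0.40 ± 0.04, edgeR adjusted p = 1.8e-06). Lamp2, its close relative, averaged 722 ± 27.0 CPM in ORAI2 and 765 ± 13.04 CPM in GFP libraries and did not pass (edgeR adjusted p = 0.0938).

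Mcoln1, the calcium-permeable TRPML1 channel of the lysosome, had 152, 143 and 155 CPM in the ORAI2 libraries, against 105, 110.0 and 116 CPM in the GFP libraries. It was 1.36-fold higher without overlap (log2 fold change 0.44 ± 0.04, edgeR adjusted p = 6.32e-06). Scarb2, a membrane glycoprotein of the lysosome, had 91.5, 102 and 93.6 CPM in the ORAI2 libraries, against 126, 133 and 124 CPM in the GFP libraries. It was 1.34-fold lower (log2 fold change -0.42 ± 0.04, edgeR adjusted p = 1.16e-05). Cd63 was 1.11-fold higher. Cd63 can share reads with a pseudogene copy that is 98.5% identical over 812 bases, so its value is uncertain. Cln3, with 29 to 54 counts a library, gave a log2 fold change of -0.01 ± 0.25 and could not be resolved at this depth.

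All 3 v-ATPase genes of the list rose, where 20.8% of all tested genes were called higher. Atp6v1h, a regulatory subunit of the cytosolic sector, had 216, 231 and 214 CPM in the ORAI2 libraries, against 149, 150.2 and 148 CPM in the GFP libraries (1.48-fold, edgeR adjusted p = 2.04e-07). Atp6v0d1, a subunit that joins the membrane sector to the stalk, had 177, 178 and 175 CPM in the ORAI2 libraries, against 115, 121 and 128 CPM in the GFP libraries (1.45-fold, edgeR adjusted p = 5.84e-07). In both genes the groups were well apart. Atp6ap1, an accessory protein of the pump, averaged 284 ± 9.06 CPM in ORAI2 and 248 ± 3.95 CPM in GFP libraries (1.14-fold, edgeR adjusted p = 0.000888).

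Of the 13 other tested v-ATPase genes, 10 were called higher and none lower, and Atp6v0a1, Atp6v0c and Atp6v1e1 did not pass, with a median log2 fold change of 0.24. Atp6v0b, of the proton-conducting ring, averaged 220 ± 2.48 CPM in ORAI2 and 156 ± 4.44 CPM in GFP libraries (log2 fold change 0.50, edgeR adjusted p = 3.37e-07). Atp6v1c1, which links the sectors, averaged 239 ± 4.60 CPM in ORAI2 and 169 ± 5.40 CPM in GFP libraries (log2 fold change 0.50, edgeR adjusted p = 4.43e-07). Atp6ap2, an accessory protein, and Atp6v1b2, a subunit of the catalytic head, were both 1.23-fold higher. Together with the 3 genes of the list, 13 of 16 were called higher, against 20.8% of all tested genes.

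**Figure D4:**
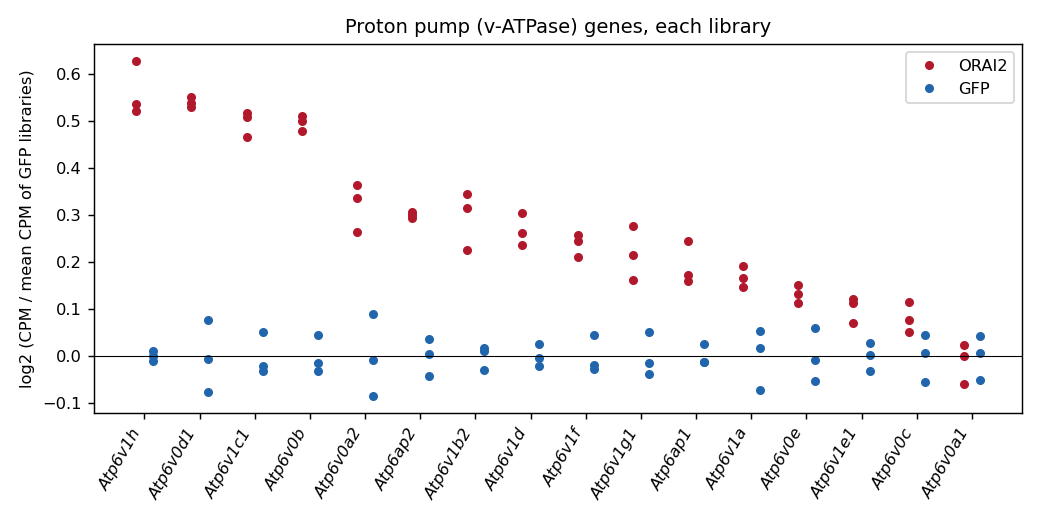
Log2 of the level in each library over the mean CPM of the 3 GFP libraries, for the 16 tested v-ATPase genes ordered by fold change, ORAI2 in red to the left of GFP in blue. For 15 of the 16 genes every ORAI2 point lies above every GFP point.

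Tfeb itself was low and did not pass: it had 5.44, 7.47 and 5.95 CPM in the ORAI2 libraries, against 7.68, 8.40 and 6.80 CPM in the GFP libraries. The groups overlapped through ORAI2 library 2, without which Tfeb was called lower (edgeR adjusted p = 0.0271, against 0.114 with it). Grn, which encodes progranulin, a lysosomal and secreted glycoprotein, averaged 603 ± 21.5 CPM in ORAI2 and 610 ± 20.6 CPM in GFP libraries (edgeR adjusted p = 0.783).

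Of 18 other genes of the TFEB family and of its control at the lysosomal surface, 11 were higher (61.1%, against 20.8% of all tested genes) and 3 lower (16.7%, against 22.1%), with a median log2 fold change of 0.14. Fnip2 and Fnip1, partners of folliculin, were 1.35-fold and 1.25-fold higher (edgeR adjusted p = 1.73e-06 and 1.31e-05). Lamtor3, a subunit of the Ragulator scaffold, averaged 91.0 ± 1.97 CPM in ORAI2 and 64.6 ± 2.69 CPM in GFP libraries, and Rragc, a Rag GTPase, averaged 182 ± 4.11 CPM in ORAI2 and 143 ± 3.90 CPM in GFP libraries. Rragd and Tfe3 were chosen after their values were seen. Rragd, another Rag GTPase, was 2.06-fold higher at 11.2 ± 1.47 CPM in ORAI2 and 5.45 ± 0.33 CPM in GFP libraries. Tfe3, a relative of Tfeb, was lower with a log2 fold change of -0.17.

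Genes that sort enzymes to lysosomes were higher where they passed: 7 of 12 rose (58.3%, against 20.8% of all tested genes) and none fell, with a median log2 fold change of 0.15. Igf2r, the large mannose 6-phosphate receptor, averaged 687 ± 15.7 CPM in ORAI2 and 539 ± 17.2 CPM in GFP libraries (1.28-fold, edgeR adjusted p = 9.44e-06). Vps26a and Vps35, subunits of the retromer that returns such receptors, were 1.29-fold and 1.18-fold higher. Nagpa, which uncovers the mannose 6-phosphate tag, averaged 16.9 ± 0.26 CPM in ORAI2 and 13.1 ± 0.79 CPM in GFP libraries.

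A wider set of 42 tested lysosomal genes outside the list gave 12 higher (28.6%, against 20.8% of all tested genes) and 14 lower (33.3%, against 22.1%), with a median log2 fold change of -0.09. Mfsd1, a transporter of the lysosomal membrane, averaged 416 ± 13.8 CPM in ORAI2 and 286 ± 16.7 CPM in GFP libraries (1.45-fold, edgeR adjusted p = 1.35e-06). Ostm1, the partner of the chloride transporter Clcn7, was 1.32-fold higher. Of 19 autophagy genes, 5 were higher and 2 lower, 36.8% in all, which is less than the 42.9% of all tested genes. Map1lc3a, of the LC3 family on autophagosome membranes, and Wipi1, which binds their lipids, were 1.51-fold and 1.48-fold lower. Atg7, the activating enzyme of LC3 conjugation, and Uvrag, of the lipid kinase complex, were 1.38-fold and 1.26-fold higher.

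**Figure D5:**
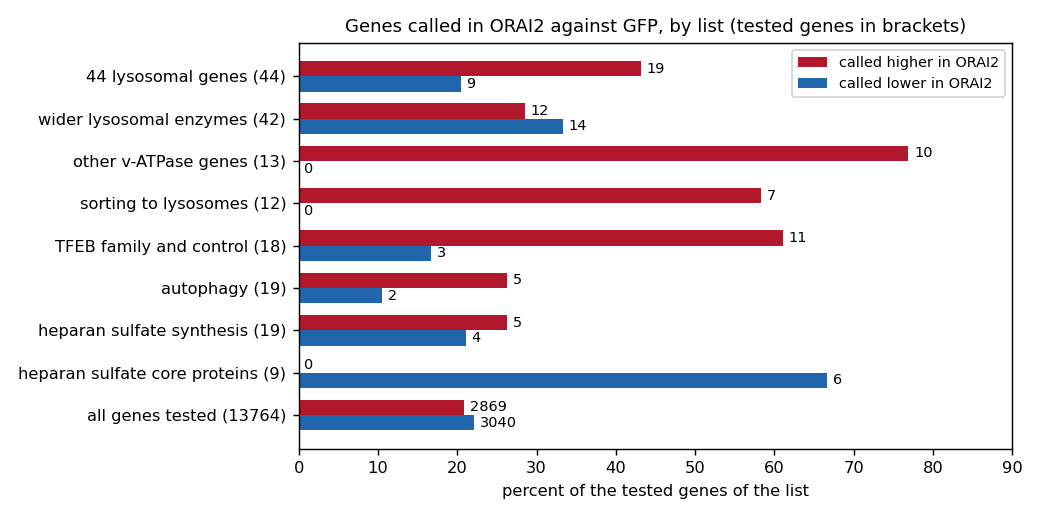
Percent of the tested genes of each list called higher (red, upper bar) or lower (blue, lower bar) in ORAI2 than in GFP libraries, with the number of called genes beside each bar. The v-ATPase and sorting lists have calls in the higher direction only, the heparan sulfate core proteins in the lower direction only, and the bottom bars give the 20.8% and 22.1% of all tested genes.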

How the data were processed

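RNA-seq of 6 libraries was used as gene counts deposited in 1 table of the whole series, beside TPM values that the authors also deposited in it, per the file headers. HISAT2 2.0.4, Salmon 1.4.0 and build GRCm39 are named in the submitters' processing notes. Entrez identifiers were matched to mouse symbols for 25631 of 26532 genes (96.6%). Genes and lists were chosen with earlier results of these data known. Counts were tested with edgeR 4.0.16 (quasi-likelihood, TMM, R 4.3.3) after filterByExpr with a minimum count of 10, and adjusted by the Benjamini-Hochberg method. CPM are TMM-scaled with SD over 3 libraries, sums of CPM are not TMM-scaled, and the standard error is the log2 fold change over the square root of F. Named were called genes of the list with an absolute log2 fold change of at least 0.3, heparan sulfate enzymes, cathepsins, v-ATPase genes, Tfeb, the most and least abundant genes, and up to 4 genes of the smallest p per further list, of which some are not reported here. Other genes of the list are given for completeness. Same-numbered libraries deviated together (r = 0.108, 0.173 and 0.185 over 8915 genes), so the replicate number was also used as a block. Replicates differed by more than sampling noise. The TPM column named for ORAI2 library 3 holds Orai2 at 36.33 TPM, near the GFP columns, so TPM was used only from columns numbered 1 and 2, as log2(TPM + 1) in limma 3.58.1. Alternatives were DESeq2 1.42.0, limma-voom, other scalings, other filters and leaving out each library. The scripts were tested on simulated data.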

Additional observations from a re-analysis of the deposited data

Results flagged for a closer look

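The TPM columns numbered 3 were left out of the comparisons, and Hgsnat is above 0 in both. The column named for ORAI2 library 3 lists Hgsnat at 74.43 TPM, against 39.37 TPM in the column named for GFP library 3, and so lies above all of the GFP columns numbered 1 and 2 (65.59 and 58.43 TPM) and below the ORAI2 columns numbered 1 and 2 (154.36 and 140.18 TPM). Orai2 stands at 36.33 TPM in the column named for ORAI2 library 3 and at 38.19 TPM in that named for GFP library 3, a like level in both, and their Hgsnat values cannot be read as a contrast of ORAI2 with GFP. By comparison, the ORAI2 columns numbered 1 and 2 list 1429.5 and 1241.34 TPM. In the counts, ORAI2 library 3 held 45140 counts of Orai2. Across 8915 genes, deviations from the mean of all 6 columns were correlated between TPM and counts, values that largely restate the group difference. The TPM column named for ORAI2 library 3 reached at most r = 0.22 with any count column, and 0.121 with that of its own name. The TPM columns numbered 1 and 2 lay nearest to count columns of their own group but of another number: ORAI2 library 1 to the counts of library 2 (r = 0.789, against 0.565 with its own), ORAI2 library 2 to library 3 (0.727 against 0.668), GFP library 1 to library 2 (0.588 against 0.384) and GFP library 2 to library 3 (0.584 against 0.413). The TPM column numbers therefore do not match those of the counts, and TPM was used by group only.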

How the results depend on the processing

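Of the 28 called lysosomal genes, 24 kept their call under all 14 other scalings, tools, filters, blocks and left-out libraries tried, and Ctsd, Ctsl, Psap and Npc2 did not. The share of all tested genes that kept their call is not given here. The number called ran from 24 to 31 of 44 when 1 library was left out, where 35.3 to 40.5% of all tested genes were called. With DESeq2 it was 28, where 35.1% of all tested genes were called. With upper-quartile scaling 17 were higher and 12 lower. Under that scaling 43% of all 13764 tested genes were called, 5914 in number, of which 2570 were higher. The log2 ratio of Hgsnat to the other heparan sulfate enzymes ran from 1.51 to 1.61, and to the cathepsins from 1.03 to 1.17, when 1 library was left out. The log2 fold change of Hgsnat ran from 1.26 to 1.38 over the same 14. With the replicate block, 30 lysosomal genes were called (19 higher, 11 lower), the 2 more being Manba and Aga, and no other call of the 44 changed. That block called 45.4% of all tested genes. No direction of a called value reversed. An alternative chosen after seeing the data, TPM of columns 1 and 2 in limma, has 2 columns a group: it called 16 of the 44 genes, 10 of them higher, with 3 in the sorting list, 4 in the autophagy list and 3 in the heparan sulfate synthesis list, where 23.2% of all genes were called. Fewer libraries entered that fit. Counts of Ctsk and Cln3 were too low to resolve a small change.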

Other observations

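Over the 6 libraries, the genes whose log2 CPM followed that of Hgsnat most closely, of 10526 genes that averaged 5 CPM or more, were Klf6 (Pearson's r = 0.9994), Camk2d (0.9988), Prkar2a, Trmt10c and Piezo1 (0.9986 each). The libraries fall into 2 groups, so such values mostly restate the group difference and are a description. Klf6, a zinc-finger transcription factor, averaged 312 ± 14.0 CPM in ORAI2 and 188 ± 8.15 CPM in GFP libraries. Piezo1, a mechanosensitive cation channel, averaged 415 ± 15.7 CPM in ORAI2 and 306 ± 7.86 CPM in GFP libraries.

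The 8 tested genes nearest to Hgsnat in RefSeq order, with untested genes passed over, had smaller differences. Star, Ash2l and Pomk were called higher, with log2 fold changes of 0.43, 0.10 and 0.29, where 20.8% of all tested genes were called higher. Bag4, Lsm1, Fnta, Hook3 and Rnf170 did not pass, with log2 fold changes between -0.07 and 0.14.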
